A study of Mus musculus with 9 samples.

Results

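The receptor chains and adaptors through which interleukin 33 (IL-33) and interleukin 18 (IL-18) act were followed in group 2 innate lymphoid cells (ILC2s). These are lymphocytes that live in tissues and secrete type 2 cytokines such as IL-5 and IL-13. The set holds 10 named genes of the 23466 in the count table: Il1rl1, Il18r1, Il1rap, Il18rap, Il1r2, Sigirr, Myd88, Irak4, Irak2 and Traf6. All 10 were found by their symbol, and 9 passed the filter on low counts. Il1r2 did not.

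RNA was sequenced from cells sorted as live, CD45-positive, lineage-negative, ST2-positive and Thy1-positive from wild-type C57BL/6 mice aged 10 weeks. Injured meninges were brain meninges of mice whose spinal cord had been contused with 80 kdyn 24 h earlier, uninjured meninges were brain meninges of mice without injury, and uninjured lung was lung of mice without injury, with 3 libraries in each group. Per the labels, 5 mice were pooled per group, and whether each library had its own pool is not stated, so every p-value below rests on a spread between libraries that may be technical only. No group was labelled as sham-operated, so the contusion and the surgery around it cannot be told apart.

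IL-33 and IL-18 are alarmins of the IL-1 family, released by damaged or activated cells. Each binds a ligand-specific chain, ST2 (Il1rl1) for IL-33 and IL-18 receptor alpha (Il18r1) for IL-18, which then pairs with an accessory chain, Il1rap for ST2 and Il18rap for the IL-18 receptor. The paired cytoplasmic TIR domains recruit the adaptor MyD88, which gathers IRAK4 and further IRAK kinases and hands the signal to the ubiquitin ligase TRAF6, upstream of NF-kB and MAP kinases. IL-33 is a main activator of ILC2s, and ST2 is a common surface marker for sorting them.

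The libraries held 13407277 to 18253462 counts. The 12 ILC2 identity genes, Gata3, Rora, Il7r and Ptprc among them, were detected in every library, with summed levels of 7082 to 9013 CPM in injured meninges, 6376 to 6556 CPM in uninjured meninges and 6360 to 8403 CPM in lung. Of the genes of the gate itself, Thy1 was called lower in injured meninges, at 92.5, 60.1 and 51.4 CPM, against 279, 167 and 229 CPM in uninjured meninges (edgeR adjusted p = 0.0218). CPM, the unit of level used throughout, are counts scaled to library size with TMM factors. Injured meninges 2 stood apart. It had the fewest detected genes, 13465 against 15761 to 18452 in the other libraries, and the lowest median Spearman correlation with its own group, 0.797 against 0.825 to 0.873. Results that rest on it are given with and without it.

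Il1rl2, Il1rl1, Il18r1 and Il18rap follow each other as neighbouring protein-coding genes on mouse chromosome 1 in RefSeq, and Il1r2 lies on the same chromosome beside Il1r1. Promoter windows from RefSeq (build GRCm38.p6, all on the + strand, 300 bases around a start site) are shown for the 3 adjacent members because these neighbours differed in level and in their values across the groups. The files' counts were made on another build, mm9, so the coordinates belong to the windows and not to the counts. Capitals mark GATA words, the binding motif of GATA factors, searched on both strands with overlaps included. The words were AGATAA or AGATAG, and the variants with another first base, TGATAA or else the word TGATAG. Il1rl1 has a pair of annotated starts, at chr1:40429320-40429619 and chr1:40439379-40439678. The Il18r1 window, the most upstream of its 3, lies at chr1:40465302-40465601, and that of Il18rap at chr1:40515112-40515411.
Il1rl1, upstream start: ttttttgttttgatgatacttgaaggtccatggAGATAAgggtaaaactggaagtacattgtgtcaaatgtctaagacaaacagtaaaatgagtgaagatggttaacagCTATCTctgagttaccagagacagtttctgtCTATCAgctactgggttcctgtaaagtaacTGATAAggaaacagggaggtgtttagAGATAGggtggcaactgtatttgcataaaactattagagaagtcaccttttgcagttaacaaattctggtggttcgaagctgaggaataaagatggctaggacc
Il1rl1, downstream start: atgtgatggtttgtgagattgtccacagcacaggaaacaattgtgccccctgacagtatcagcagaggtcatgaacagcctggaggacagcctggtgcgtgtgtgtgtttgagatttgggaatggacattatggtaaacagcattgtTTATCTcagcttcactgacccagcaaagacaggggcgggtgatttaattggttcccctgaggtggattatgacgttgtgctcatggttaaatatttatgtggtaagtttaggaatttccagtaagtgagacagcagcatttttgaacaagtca
Il18r1: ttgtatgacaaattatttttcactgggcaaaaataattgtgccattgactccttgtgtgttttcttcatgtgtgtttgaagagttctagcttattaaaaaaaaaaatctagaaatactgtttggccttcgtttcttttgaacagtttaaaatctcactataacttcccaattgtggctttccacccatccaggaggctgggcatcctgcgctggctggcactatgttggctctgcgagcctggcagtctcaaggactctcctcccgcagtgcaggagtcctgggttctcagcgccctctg
Il18rap: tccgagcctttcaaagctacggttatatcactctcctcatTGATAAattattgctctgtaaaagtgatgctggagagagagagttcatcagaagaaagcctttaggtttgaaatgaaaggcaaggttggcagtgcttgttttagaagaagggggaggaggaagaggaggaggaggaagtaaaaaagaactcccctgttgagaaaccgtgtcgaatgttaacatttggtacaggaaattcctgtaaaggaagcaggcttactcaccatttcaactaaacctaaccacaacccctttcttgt

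The upstream Il1rl1 window held 5 GATA words. The downstream Il1rl1 window held 1, that of Il18rap held 1, and none of the 3 Il18r1 windows held any. Of 32851 promoter windows of this length, 29.8% held at least 1 GATA word and 0.0548% held 5 or more. None of the 6 windows of these 3 genes held the AP-1 word TGANTCA, which 7.81% of windows held, or a match to the NF-kB consensus, which 5.80% held. A match is a description of the letters. Gene-level counts do not show which start was used, nor do they separate the membrane and soluble forms of ST2 that Il1rl1 encodes.

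Among the ligand-binding chains, Il1rl1 was by far the more abundant, and its protein, ST2, was part of the sort gate. It had 1929, 2516 and 2694 CPM in injured meninges, 1864, 2163 and 2537 CPM in uninjured meninges, and 1852, 2410 and 2178 CPM in uninjured lung. The 3 groups overlapped almost fully, and in each library Il1rl1 ranked between 8 and 17 among all 23466 genes by CPM. Its log2 fold change was 0.12 ± 0.17 (SE) between injured and uninjured meninges (edgeR adjusted p = 0.898) and 0.03 ± 0.17 between uninjured meninges and lung (edgeR adjusted p = 0.995). The value between uninjured meninges and lung was -0.0012 with relative log expression scaling and kept its sign with upper quartile scaling and with library totals. In these bulk libraries fewer cells with a transcript and less of it per cell cannot be told apart.

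Il18r1 had 99.5, 112 and 65.4 CPM in injured meninges, against 33.4, 12.7 and 14.3 CPM in uninjured meninges. Uninjured lung had 49.96, 37.8 and 32.7 CPM. Every injured library lay above every library of both other groups, while uninjured lung and uninjured meninges overlapped, at 32.7 and 33.4 CPM. Of all genes tested, 12.1% did not overlap between injured and uninjured meninges, in either direction, and 17.8% between injured meninges and lung. Injured over uninjured meninges, the change was 2.19 ± 0.46 (log2, SE), and the gene was not called at an adjusted p under 0.05 (edgeR adjusted p = 0.0847). It was called without uninjured meninges 1, the highest uninjured library (2.77 ± 0.51, edgeR adjusted p = 0.0445), with DESeq2 (adjusted p = 0.000495) and with no filter on low counts (edgeR adjusted p = 0.00894). In all it was called in 4 of 17 alternatives, with adjusted p from 0.000495 to 0.326 over the 17, and without injured meninges 2 the change was 2.03 ± 0.48.

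In the other comparisons Il18r1 had a log2 fold change of 1.20 ± 0.45 between injured meninges and lung (edgeR adjusted p = 0.241) and of -0.99 ± 0.44 between uninjured meninges and lung (edgeR adjusted p = 0.572). NK cells and T cells are other known carriers of the IL-18 receptor. The 7 NK and ILC1 marker genes in the table summed to 13.9, 1.83 and 0.188 CPM in injured meninges, against 3.16, 0.0645 and 3.56 CPM in uninjured meninges. Of the 7, 5, 5 and 4 were at 0 in the injured libraries and 1, 6 and 6 in the uninjured meningeal ones. Klrb1c, the most abundant of them, had 13.7, 1.35 and 0 CPM in injured meninges, against 1.36, 0 and 0 CPM in uninjured meninges, while Gzma, with the smallest p, was at 0 in the injured libraries and had 0.653, 0 and 0 CPM in uninjured meninges. The 8 T cell markers summed to 13.2, 105 and 9.78 CPM in injured meninges and to 50.3, 17.1 and 51.1 CPM in uninjured meninges. In injured meninges 2, Cd3g alone made up 91.9 CPM of the T cell sum. The part of these cells in the Il18r1 values was not tested.

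**Figure D1:**
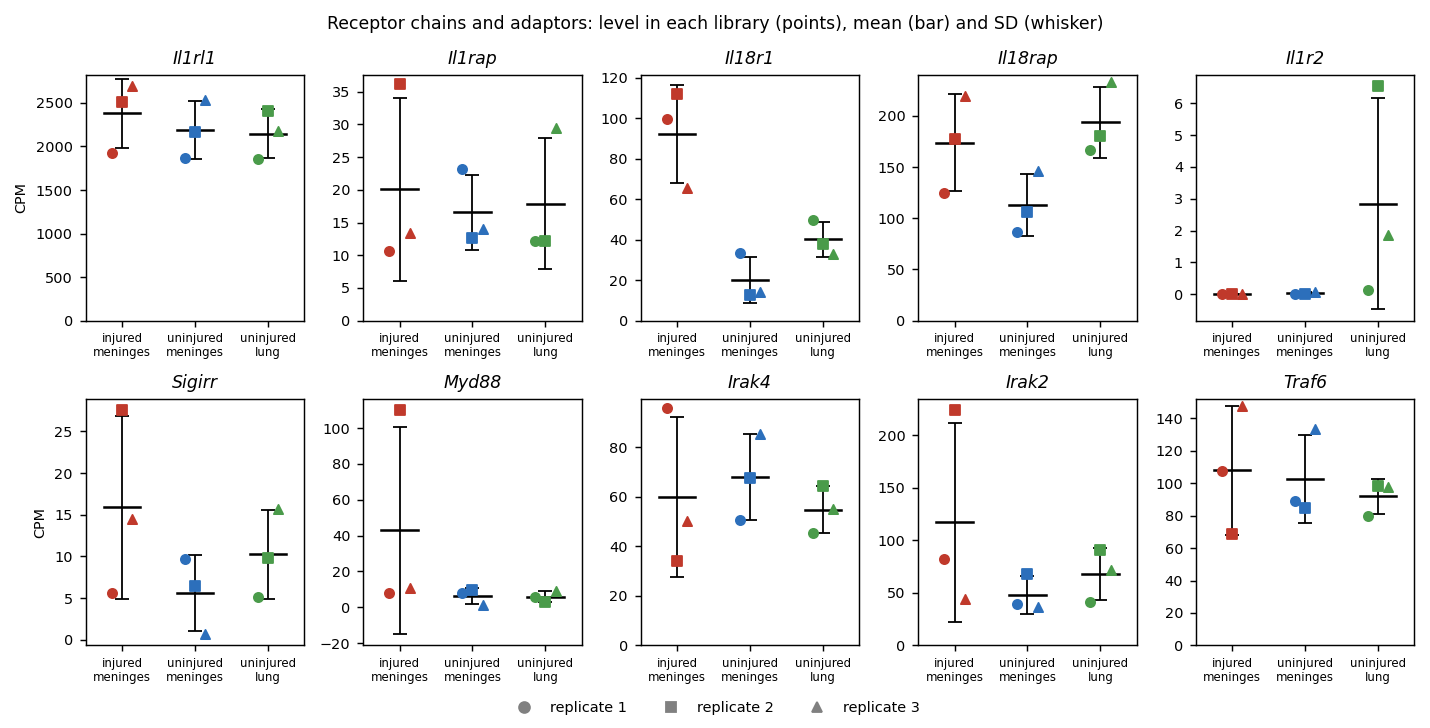
Level in CPM (y axis, linear) of each of the 10 genes in the 3 libraries of injured meninges, uninjured meninges and uninjured lung, with replicates 1 to 3 as circles, squares and triangles, the mean as a bar and the SD as a whisker. Il18r1 is the gene whose 3 injured libraries lie above all others, and injured meninges 2 (square) is far above the rest for Myd88 and Irak2.

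Of the accessory chains, Il18rap had 125, 177 and 219 CPM in injured meninges, 87.0, 106 and 146 CPM in uninjured meninges, and 167, 181 and 233 CPM in lung. The uninjured meningeal libraries lay below all 3 lung libraries, and the injured libraries overlapped with both other groups. On the log2 scale the change was -0.77 ± 0.29 (SE) between uninjured meninges and lung (edgeR adjusted p = 0.396), 0.62 ± 0.29 between injured and uninjured meninges (edgeR adjusted p = 0.551) and -0.16 ± 0.28 between injured meninges and lung (edgeR adjusted p = 0.890). Il18rap was called in none of the 17 alternatives of any comparison.

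Il1rap, the partner of ST2 and also of the IL-1 receptor, had 10.6, 36.1 and 13.5 CPM in injured meninges, 23.1, 12.6 and 14.0 CPM in uninjured meninges, and 12.2, 12.2 and 29.4 CPM in lung. The groups overlapped, and each had a single library above 20 CPM. For Il1rap the log2 fold change between injured and uninjured meninges was 0.27 ± 0.69 (SE, edgeR adjusted p = 0.954) and was -0.46 ± 0.71 without injured meninges 2. Uninjured meninges against lung gave -0.11 ± 0.69 (edgeR adjusted p = 0.995).

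Levels of different genes were compared per kilobase of merged exon. Il1rl1 averaged 345 ± 58.1 CPM per kb in injured meninges, 317 ± 48.9 in uninjured meninges and 311 ± 40.7 in lung (SD, n = 3 each). Il1rap, the chain that ST2 needs for signalling, averaged 1.77 ± 1.23 CPM per kb in injured meninges, 1.46 ± 0.503 in uninjured meninges and 1.58 ± 0.876 in lung. Il1rl1 exceeded Il1rap by 115 to 329 times per kb in injured meninges, by 133 to 298 times in uninjured meninges and by 122 to 327 times in lung. Length here is that of all annotated exons together, which for Il1rap (11.4 kb over 7 transcripts) may be longer than the form that is expressed.

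For the IL-18 receptor the chains were closer to each other. The level per kb of Il18r1 over that of Il18rap was 1.12, 0.885 and 0.418 in injured meninges, 0.538, 0.168 and 0.137 in uninjured meninges, and 0.419, 0.293 and 0.197 in lung. The injured and uninjured meningeal libraries overlapped at 0.418 and 0.538. In each library with a ratio under 1, Il18rap was the more abundant chain, which held for 8 of 9.

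**Figure D2:**
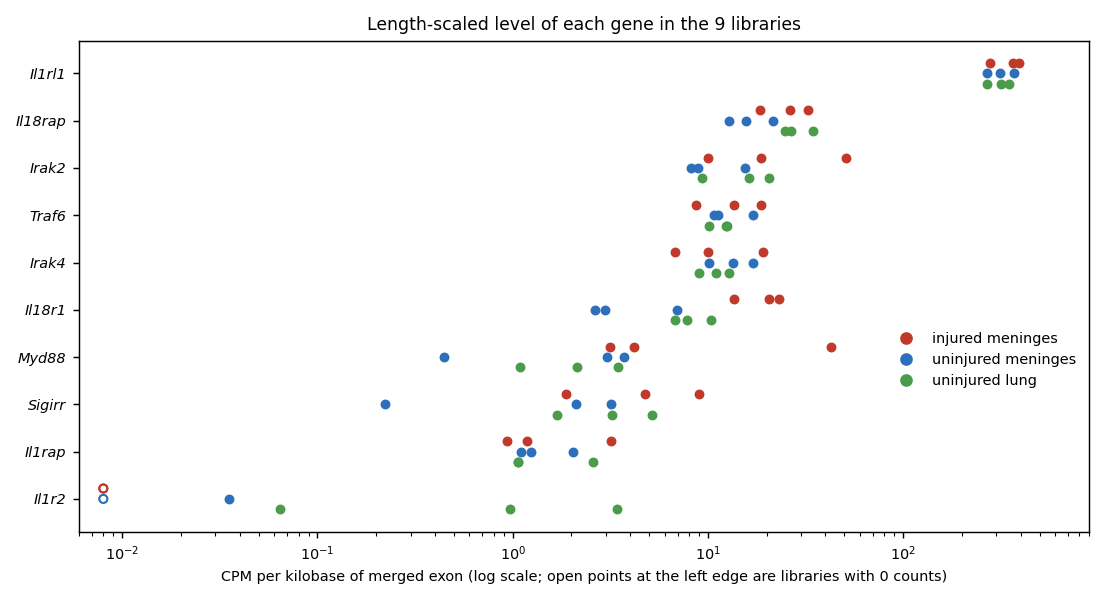
CPM per kilobase of merged exon (x axis, log scale) for each gene (rows, ordered by the mean of the 9 libraries), with 1 point per library in red for injured meninges, blue for uninjured meninges and green for uninjured lung. Il1rl1 lies between 269 and 391 CPM per kb in the 9 libraries, and Il1r2 has 0 counts in all 3 injured libraries (open points).

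Il1r2, a decoy receptor for IL-1 without a signalling domain, had 0 counts in all 3 injured meningeal libraries and 0, 0 and 1 counts in uninjured meninges. Lung had 2, 89 and 29 counts, or 0.123, 6.55 and 1.86 CPM. A count of 0 allowed up to 0.179, 0.239 and 0.188 CPM in the injured libraries. The gene did not pass the filter and was not tested. Neutrophils are known to carry Il1r2, and the 7 neutrophil markers in the table summed to 63.7, 0.398 and 28.01 CPM in injured meninges, 43.6, 6.52 and 59.9 CPM in uninjured meninges, and 3.75, 2.95 and 9.42 CPM in lung, with 2, 4 and 1 of the 7 at 0 in lung. Their part in the Il1r2 counts was not tested.

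Sigirr, a receptor-like protein that dampens ST2 and Toll-like receptor signalling, had 5.68, 27.5 and 14.5 CPM in injured meninges, 9.74, 6.45 and 0.672 CPM in uninjured meninges, and 5.16, 9.87 and 15.8 CPM in lung. The groups overlapped, and libraries of uninjured meninges differed by 14.5-fold. For Sigirr the log2 fold change between injured and uninjured meninges was 1.496 ± 1.02 (SE, edgeR adjusted p = 0.715), or 0.84 ± 1.07 without injured meninges 2, and between uninjured meninges and lung it was -0.87 ± 1.00 (edgeR adjusted p = 0.975).

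Among the adaptors, Myd88 had 8.12, 110 and 10.7 CPM in injured meninges, against 7.84, 9.61 and 1.14 CPM in uninjured meninges. Lung had 5.53, 2.80 and 8.90 CPM. Injured meninges 2 was more than 10 times above each of the other 8 libraries, and the other injured libraries lay close to the uninjured ones. Injured over uninjured meninges, the log2 change was 2.79 ± 1.04 (SE, edgeR adjusted p = 0.478), and it was 0.60 ± 1.12 without that library. Injured meninges over lung, it was 2.90 ± 1.04 (edgeR adjusted p = 0.225), and 0.71 ± 1.12 without that library. Myd88 shares 290 exon bases, 11.3% of its exon length, with Acaa1a on the opposite strand, and the sources do not say whether strand was used in counting.

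Irak2, a kinase-like protein that sustains signalling after IRAK4, had 82.6, 224 and 44.2 CPM in injured meninges, against 39.2, 68.3 and 36.2 CPM in uninjured meninges. Lung had 41.2, 90.6 and 71.7 CPM. The groups overlapped, and injured meninges 2 was again the highest. The change between injured and uninjured meninges was 1.29 ± 0.51 (log2, SE, edgeR adjusted p = 0.495), and 0.41 ± 0.44 without it. Uninjured meninges against lung gave -0.50 ± 0.50 (edgeR adjusted p = 0.954).

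Irak4, the first kinase of the MyD88 complex, had 95.9, 33.9 and 50.1 CPM in injured meninges, 50.8, 67.6 and 85.5 CPM in uninjured meninges, and 45.2, 64.4 and 55.0 CPM in lung. Traf6 had 107, 68.6 and 148 CPM in injured meninges, 88.9, 84.8 and 134 CPM in uninjured meninges, and 79.6, 98.5 and 97.7 CPM in lung. The groups overlapped for both genes. Between injured and uninjured meninges the log2 fold change was -0.18 ± 0.41 (SE) for Irak4 (edgeR adjusted p = 0.947) and 0.08 ± 0.32 for Traf6 (edgeR adjusted p = 0.980), and both changed sign when single libraries were left out. Irak4 shares 395 exon bases, 7.87% of its exon length, with Twf1 on the opposite strand.

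**Figure D3:**
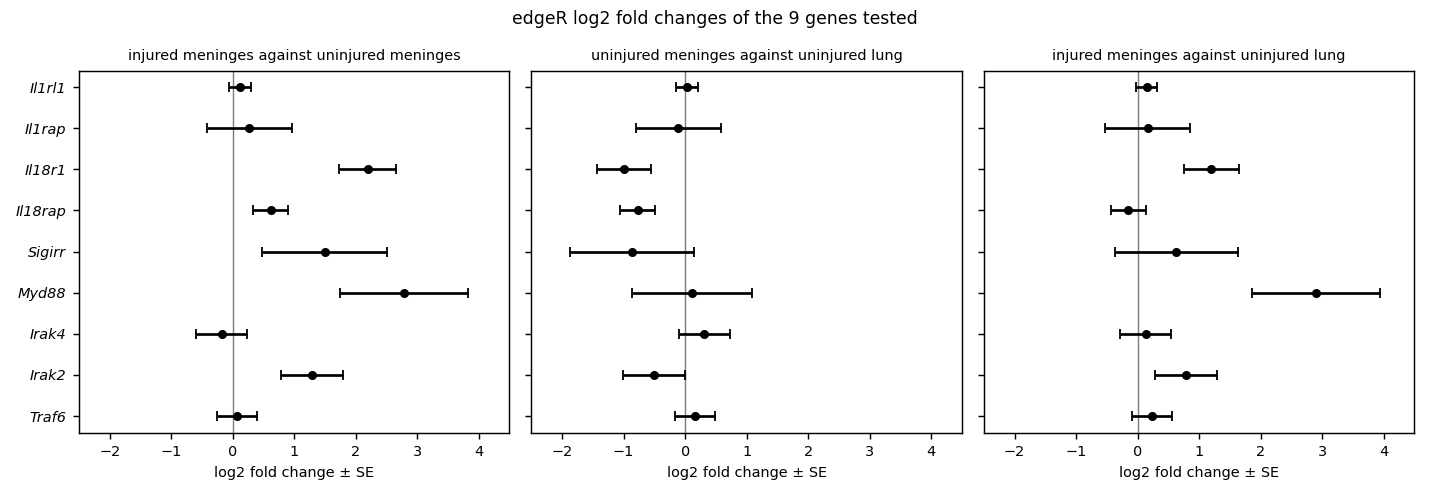
edgeR log2 fold change (x axis) with its standard error for the 9 genes tested (rows), in injured against uninjured meninges (left), uninjured meninges against lung (middle) and injured meninges against lung (right). Il18r1 has 2.19 ± 0.46 and Myd88 2.79 ± 1.04 in the left panel, and Il1rl1 stays within 0.15 of 0 in all 3 panels.

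Over the set, 0 of 9 genes tested were called between injured and uninjured meninges with edgeR, where 0.192% of 15117 genes were called. At an unadjusted p under 0.05 there were 4, Il18r1, Il18rap, Myd88 and Irak2, against 8.94% of genes. DESeq2, which gave no adjusted p for Myd88, called 1, Il18r1. The median log2 fold change was 0.62 for the 9 genes and -0.0047 for all genes tested. Groups did not overlap for 1 of the 9, Il18r1, against 12.1% of genes, a share near the background. Without injured meninges 2, 1 of the same 9 genes, Il18r1, had an unadjusted p under 0.05, against 8.01% of genes, and their median was 0.41.

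For uninjured meninges against lung 0 of 9 genes were called with edgeR, where 0.635% of genes were called, and 0 with DESeq2. At an unadjusted p under 0.05 there were 2, Il18r1 and Il18rap, both lower in uninjured meninges, against 7.98% of genes. Groups did not overlap for 1 of the 9, Il18rap, against 18.2% of genes. Between injured meninges and lung 0 of 9 genes were called with edgeR, where 1.05% of genes were called, and 0 with DESeq2, while 2, Il18r1 and Myd88, had an unadjusted p under 0.05, against 13.3% of genes. Without injured meninges 2 it was 1 of the same 9, Il18r1, against 12.5% of genes. With all libraries, injured meninges and lung did not overlap for 1 of the 9, Il18r1, against 17.8% of genes. The comparisons share libraries, so their values are not independent of each other.

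The genes varied within groups as well as between them. Il1rl1 had coefficients of variation of 16.8% in injured meninges, 15.4% in uninjured meninges and 13.1% in lung, the lowest of the 9 tested in both meningeal groups. In lung Traf6 was lower, at 11.6%. Myd88 in injured meninges was the most variable of the 9 tested, at 135%. Of the 9 genes tested, 5 (Il1rap, Il18r1, Sigirr, Myd88 and Irak2) had their highest level of all 9 libraries in injured meninges 2, and 2 (Irak4 and Traf6) had their lowest there. For comparison, 17.7% of all genes tested were highest and 22.6% lowest in that library. It also had the highest sum of T cell markers, 105 CPM, of which Cd3g made up 91.9 CPM, and the lowest sum of neutrophil markers, 0.398 CPM, with 6 of 7 at 0. The macrophage genes Cd68 and Csf1r, at 30.4 and 13.8 CPM, and the B cell gene Cd79a, at 29.7 CPM, were likewise highest of the 9 libraries there. Over the 10 monocyte and macrophage markers in the table, sums were 157, 80.1 and 61.7 CPM in injured meninges, against 88.7, 30.5 and 5.84 CPM in uninjured meninges. Of these monocyte and macrophage markers 9 were tested, and 9 had a positive log2 fold change between injured and uninjured meninges, against 49.4% of all genes tested. An unadjusted p under 0.05 was reached by 2 of these markers, against 8.94% of genes, and 0 were called with edgeR. In the same comparison 3 of 7 neutrophil, 1 of 5 T cell and 2 of 6 B cell markers tested had a positive log2 fold change. The part of these cells in the members' values was not tested.

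**Figure D4:**
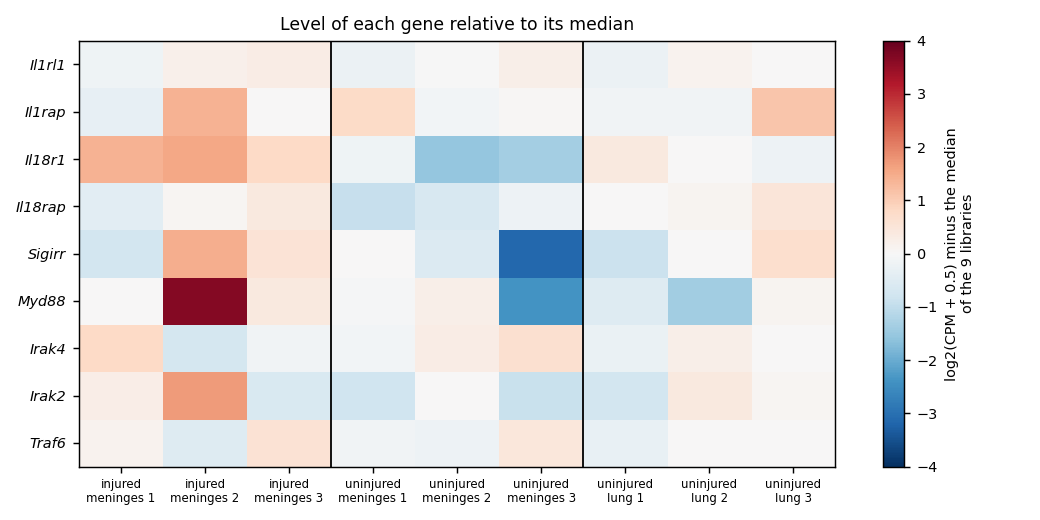
log2(CPM + 0.5) of each of the 9 genes tested (rows) minus its median over the 9 libraries (columns, grouped as injured meninges, uninjured meninges and uninjured lung), red for higher and blue for lower. The column of injured meninges 2 holds the highest value for 5 genes, Myd88 among them, and the lowest for Irak4 and Traf6.

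Other genes of the pathway were described by lists. Of 32 further proteins around MyD88, IRAK and TRAF6, 30 were tested, and 0 were called with edgeR in any of the 3 comparisons. At an unadjusted p under 0.05 there were 0 between injured and uninjured meninges, 1 between uninjured meninges and lung and 2 between injured meninges and lung. The shares over all genes tested were 8.94%, 7.98% and 13.3%, in the same order. The list's median log2 fold change was 0.08 between injured and uninjured meninges and -0.09 between uninjured meninges and lung. Tab2, an adaptor that links TRAF6 to the kinase TAK1, had 454, 506 and 569 CPM in injured meninges, against 338, 414 and 421 CPM in uninjured meninges (log2 fold change 0.38 ± 0.19, edgeR adjusted p = 0.590). Its injured libraries lay above the uninjured ones without passing the test. Groups did not overlap in this comparison for 12.1% of all genes tested, in either direction. Tab3, which acts alongside Tab2, had 35.7, 84.5 and 85.5 CPM in injured meninges, against 43.2, 17.0 and 42.0 CPM in uninjured meninges, with overlap (1.01 ± 0.50, edgeR adjusted p = 0.587). Ikbkb, a kinase that releases NF-kB from its inhibitors, was the most abundant of the list, at 263, 588 and 486 CPM in injured meninges and 337, 410 and 568 CPM in uninjured meninges (0.02 ± 0.28, edgeR adjusted p = 0.995, with a sign that changed under upper quartile scaling and library totals). Peli1, a ubiquitin ligase that acts on IRAK proteins, had 260, 331 and 380 CPM in uninjured meninges, against 177, 229 and 177 CPM in lung (0.74 ± 0.22, edgeR adjusted p = 0.222).

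Of 13 genes of the NF-kB and MAP kinase arms, 0 were called between injured and uninjured meninges with edgeR, where 0.192% of all genes tested were called. An unadjusted p under 0.05 was reached by 4 of the 13, against 8.94% of all genes tested. Tnfaip3, the gene of the NF-kB inhibitor A20, had 339, 229 and 569 CPM in injured meninges, against 129, 131 and 184 CPM in uninjured meninges (log2 fold change 1.36 ± 0.28, edgeR adjusted p = 0.0740). It was called in 4 of 17 alternatives, among them DESeq2 (adjusted p = 0.000826), no filter on low counts (edgeR adjusted p = 0.00193) and the fit without injured meninges 2 (1.62 ± 0.24, edgeR adjusted p = 0.00869), with adjusted p up to 0.323 over the 17. Nfkbia, which encodes the inhibitor IkB alpha, had 53.2, 75.1 and 59.4 CPM in injured meninges, against 25.3, 23.7 and 35.5 CPM in uninjured meninges (log2 fold change 1.15 ± 0.36, edgeR adjusted p = 0.355). Nfkbiz, a nuclear IkB protein, had the opposite sign, with 114, 87.1 and 235 CPM in injured meninges and 210, 397 and 426 CPM in uninjured meninges (-1.24 ± 0.35, edgeR adjusted p = 0.281). It was called in 2 of 17 alternatives, DESeq2 (adjusted p = 0.0342) and the fit without injured meninges 3 (-1.77 ± 0.32, edgeR adjusted p = 0.0466), with adjusted p up to 0.682. Nfkb1, which encodes the NF-kB subunit p50 and was the most abundant of the 13, had 889, 718 and 1021 CPM in injured meninges, against 494, 589 and 792 CPM in uninjured meninges (0.49 ± 0.22, edgeR adjusted p = 0.548).

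In uninjured meninges 2 of the 13 were called lower than in lung, Tnfaip3 and Nfkbia, and between injured meninges and lung 3 were called lower, Tnfaip3, Nfkbia and Nfkbiz. Over all genes tested, 0.635% and 1.05% were called in these comparisons, in either direction. Tnfaip3 had 1479, 1952 and 1898 CPM in lung, with log2 fold changes of -3.58 ± 0.30 in uninjured meninges (edgeR adjusted p = 4.48e-05) and -2.23 ± 0.28 in injured meninges (edgeR adjusted p = 0.000767). Nfkbiz had 114, 87.1 and 235 CPM in injured meninges, against 508, 841 and 609 CPM in lung, and changed by -2.16 ± 0.36 on the log2 scale (edgeR adjusted p = 0.00678). Nfkbia had the same direction (-1.84 ± 0.36, edgeR adjusted p = 0.0210). The Nfkbia call was lost without injured meninges 1, injured meninges 3, lung 2 or lung 3. The median of the list was -0.47 between uninjured meninges and lung and -0.38 between injured meninges and lung, against 0.0019 and -0.01 for all genes tested. The 6 lung epithelium markers summed to 21.0, 27.6 and 7.96 CPM in injured meninges, 11.05, 8.78 and 3.76 CPM in uninjured meninges, and 2198, 645 and 1327 CPM in lung, and 2 of the 6 were called lower in each comparison with lung. The 5 endothelial markers summed to 123, 94.9 and 58.5 CPM in injured meninges, 187, 60.8 and 96.7 CPM in uninjured meninges, and 520, 150 and 383 CPM in lung, with 0 called. The part of such cells in the differences from lung was not tested.

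Transcripts of the ligands IL-33 and IL-18 were scarce in the sorted cells. Il33 had 3.58 CPM in injured meninges 2 and 0 in the other injured libraries, 0 in all uninjured meningeal libraries, and 1.23, 0 and 10.8 CPM in lung. Il18 was at 0 in all injured libraries and did not exceed 3.91 CPM in any library. Il1b, an inflammatory cytokine, had 0.0544, 0 and 0 CPM in uninjured meninges, against 26.7, 27.4 and 22.5 CPM in lung, and was called lower (edgeR adjusted p = 0.0196). This call was lost without any 1 of the 6 libraries compared. Monocyte and macrophage markers summed to 88.7, 30.5 and 5.84 CPM in uninjured meninges and 366, 34.3 and 482 CPM in lung, most of it Lyz2 in lung 1 and lung 3. Mast cell and basophil markers summed to 246, 308 and 236 CPM in uninjured meninges and 671, 912 and 761 CPM in lung, mostly Kit. Kit alone had 209, 306 and 230 CPM in uninjured meninges, against 618, 854 and 692 CPM in lung. Kit was called lower in uninjured meninges (edgeR adjusted p = 0.00308), and the sums mainly follow this 1 gene. Hdc of the same list had 0.707, 0 and 0 CPM in uninjured meninges, against 28.8, 44.8 and 36.8 CPM in lung. Others of the list, Mcpt8, Cma1, Tpsb2 and Ms4a2, were at 0 in all lung libraries, and Ms4a2 had 6.91, 0 and 4.16 CPM in uninjured meninges. Of the 5 tested, 4 were lower and 1 higher in uninjured meninges than in lung. The part of such cells in the Il1b values was not tested. Il1rn, the IL-1 receptor antagonist, had 12.3, 0.955 and 1.57 CPM in injured meninges, against 0.925, 0 and 0 CPM in uninjured meninges, and was not called (edgeR adjusted p = 0.538). Lung had 7.87, 1.33 and 39.9 CPM of Il1rn. Between uninjured meninges and lung it was not called with edgeR (adjusted p = 0.306). It was called there in 1 of 17 alternatives, DESeq2 (adjusted p = 0.00882). In all, 4 of 11 ligand and inhibitor genes were tested, and 1 call was made with edgeR over the 3 comparisons.

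**Figure D5:**
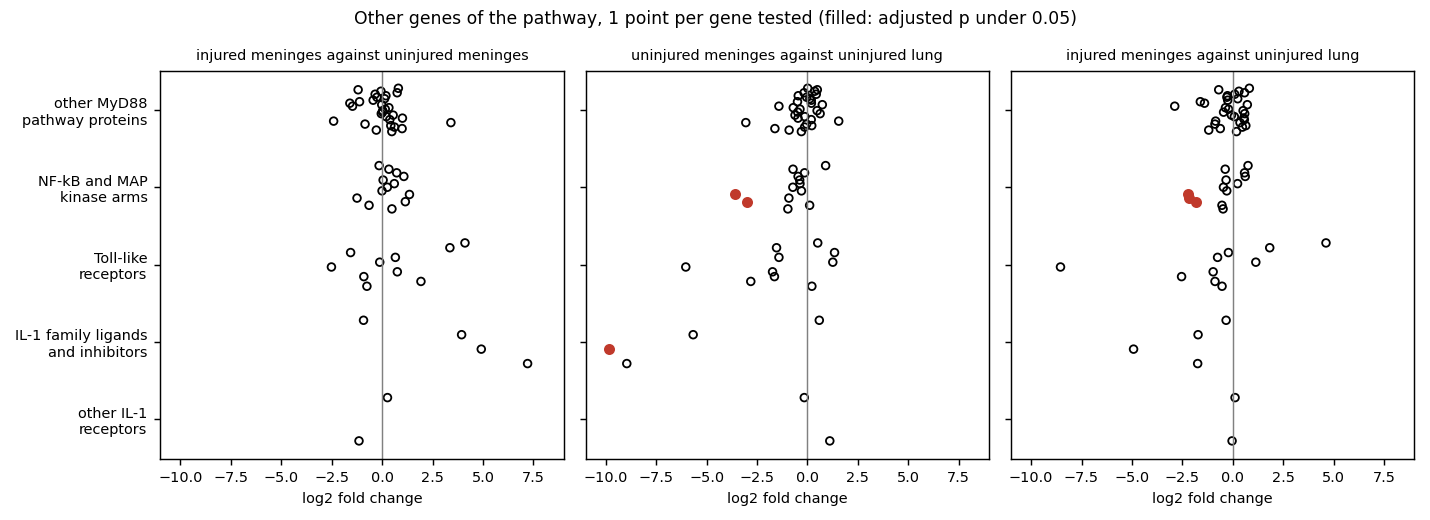
edgeR log2 fold change (x axis) of each other pathway gene tested (1 point per gene) by list (rows), in injured against uninjured meninges (left), uninjured meninges against lung (middle) and injured meninges against lung (right), with filled red points at an adjusted p under 0.05. No point is filled in the left panel, and the 30 genes around MyD88, IRAK and TRAF6 are not filled in any panel.

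Il1r1, the signalling receptor for IL-1 itself, had 14.8, 0.716 and 4.89 CPM in injured meninges, 34.9, 10.3 and 0.0672 CPM in uninjured meninges, and 6.39, 5.38 and 9.22 CPM in lung, with overlapping groups. Il1rl2, the IL-36 receptor chain encoded next to Il1rl1, had 6.73 to 19.97 CPM over the 9 libraries. Neither was called.

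Over the 9 libraries, the 5 genes whose log2 CPM was most like that of Il18r1 among 7409 named genes of at least 10 CPM were Gpr35, Tmem263, Rtn3, Daam1 and Camk4, with Pearson correlations of 0.967 to 0.938. Gpr35 averaged 33.5 CPM in injured meninges, 0.130 in uninjured meninges and 2.29 in lung. For Il1rl1 they were Ptprc, Zcchc11, Ube2j2, Zcchc7 and Rps6kb1, with correlations of 0.948 to 0.931. Ptprc, which encodes CD45 of the same sort gate, had 1377, 2013 and 2069 CPM in injured meninges, 1301, 1570 and 1706 CPM in uninjured meninges, and 1385, 1914 and 1550 CPM in lung. These correlations describe 9 libraries that share their scaling and depth, and the genes were picked as the highest of many.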

How the data were processed

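The authors deposited 1 table of whole-number read counts by gene and library, not normalized. The submitters' processing notes name the tools HTSeq, STAR and FastQC and the build mm9, but neither their versions nor their order. The labels' protocols name a PicoPure kit for extraction, then cDNA amplification by the Ovation V2 system. Whether counting was strand-specific is not stated.

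The counts entered edgeR (version 4.0.16, under R 4.3.3). The filterByExpr rule retained 15117 genes, and all 9 libraries entered 1 robust quasi-likelihood fit with a mean per group and no replicate block. Benjamini-Hochberg adjustment was over all genes tested, and an adjusted p under 0.05 is a call. A standard error was taken as the absolute log2 fold change over the root of the F statistic. Exon lengths came from GENCODE M21. The procedure was also run on simulated counts, where only genes at or above a minimum mean level were changed. Recovery of changes in scarce genes was not tested there. A limit of 3 counts is the most a count of 0 allows, for counting error only. Alternatives were DESeq2 1.42.0, other scalings, no filter, other sets of libraries and a replicate block.

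The members and lists were chosen with earlier results of these data known. By the naming rule, every member is given. From each pathway list come up to 4 genes with the smallest p in any comparison and the most abundant gene. Some marker genes, such as Csf1r, Cd79a and Hdc, were named after their values were seen. Like patterns are the 5 genes of highest correlation. No pair of libraries in a group agreed within sampling noise (lowest chi-square per degree of freedom 62.8).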

Additional observations from a re-analysis of the deposited data

How the results depend on the processing

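Over 459 values of members under the alternatives, 430 kept direction and side of the threshold, 4 (all Il18r1 between injured and uninjured meninges) passed it and 25 changed sign, none of them called. Of 373 values of other pathway genes, 341 kept both, 10 lost the threshold, 15 passed it and 7, all of Ikbkb, changed sign. The number of members called between injured and uninjured meninges was 1 in place of 0 with DESeq2, with no filter and with the replicate block, and 0 to 1 with 1 library left out. Correlations of deviations between same-numbered libraries ran from -0.0394 to 0.1, and that of uninjured meninges 1 with lung 3 was 0.101. With 4 of 9 libraries closest to their own number, these values do not settle whether replicate numbers pair the libraries. With the block Il18r1 had an edgeR adjusted p of 0.0485, Tnfaip3 of 0.0198, and the count of genes went to 43.

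The number of genes called between injured and uninjured meninges was 29 (20 higher and 9 lower), 271 with DESeq2 (142 higher and 129 lower), 78 with no filter, 12 with only those groups and 18 to 27 with 1 library left out. It was 18 without injured meninges 2 and 19 without uninjured meninges 2. Between uninjured meninges and lung it was 96, 420 with DESeq2, 193 with no filter, 226 with only those groups and 51 to 196 leaving out 1 library (51 without lung 3, 53 without uninjured meninges 2 and 196 without injured meninges 2). Between injured meninges and lung it was 159, 789 with DESeq2, 296 with no filter and 54 to 230 leaving out 1 library (54 without lung 3, 90 without lung 1, 101 without lung 2 and 104 without injured meninges 3). The causes were not tested.

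Some values changed sign. Between uninjured meninges and lung, Il1rl1 was -0.0012 with DESeq2 and -0.0012 with relative log expression scaling, and Myd88 was -0.51 with the replicate block. Between injured and uninjured meninges, Ikbkb was -0.080 with upper quartile scaling, -0.055 with library totals and -0.029 with the replicate block. With 1 library left out, values between injured and uninjured meninges were -0.23 to 0.30 for Ikbkb, -0.46 to 0.59 for Il1rap, -0.69 to 0.11 for Irak4 and -0.22 to 0.32 for Traf6. Between uninjured meninges and lung they were -0.091 to 0.13 for Il1rl1, -0.43 to 0.45 for Il1rap, -0.35 to 0.60 for Myd88 and -0.081 to 0.27 for Traf6. Between injured meninges and lung they were -0.57 to 0.72 for Il1rap, -0.36 to 0.024 for Il18rap, -0.025 to 1.08 for Sigirr, -0.40 to 0.41 for Irak4, -0.10 to 1.18 for Irak2 and -0.062 to 0.47 for Traf6.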

Other observations

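Most Toll-like receptors, though not Tlr3, also signal through MyD88. Of 12 Toll-like receptor genes, 11 were in the table and 10 were tested. With edgeR 0 were called in any of the 3 comparisons. At an unadjusted p under 0.05 there were 2 between injured and uninjured meninges, against 8.94% of all genes tested. There were 2 between uninjured meninges and lung, against 7.98%, and 4 between injured meninges and lung, against 13.3%. Tlr1 was the most abundant. It had 87.7, 113 and 110 CPM in injured meninges, against 188, 189 and 147 CPM in uninjured meninges, with no overlap (log2 fold change -0.75 ± 0.25, edgeR adjusted p = 0.407). In this comparison 12.1% of all genes tested did not overlap, in either direction. Tlr4, a receptor for bacterial lipopolysaccharide, had 12.6, 5.42 and 15.9 CPM in uninjured meninges, against 20.2, 45.8 and 46.4 CPM in lung (-1.73 ± 0.61, edgeR adjusted p = 0.344). Tlr13, a receptor for bacterial ribosomal RNA in mice, had 4.12, 47.2 and 1.94 CPM in injured meninges, against 2.45, 0 and 0.605 CPM in uninjured meninges. Its highest value was in injured meninges 2, as for Myd88. The log2 fold change was 4.11 ± 1.66 (edgeR adjusted p = 0.501), and 1.57 without that library.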
